A study of Rattus norvegicus with 6 samples.

Results

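Fragments of the 5.8S ribosomal RNA (rRNA) were examined in small RNA libraries of rat liver, as the distinct read sequences (tags) that matched perfectly within the 5.8S rRNA. They numbered 1106 of 1528721 distinct tags and were 18 to 33 nt long. Together they carried 281655 of the 70778786 clean reads. The libraries came from 3 livers labelled NAFLD (nonalcoholic fatty liver disease) and 3 labelled normal, all from Wistar rats. The labels give their age as 4 months, and the study's methods give an older age. By those methods all rats were male, the NAFLD rats had fasted and then eaten a high-starch diet and were picked for high hepatic triglycerides, and the normal rats ate a standard diet and were picked at random. The RNA had been cut from a gel as short fragments, so intact 5.8S rRNA was not in the libraries. Levels are given as TPM, the reads of a tag or class per 1000000 clean reads of the library. A tag that comes from rRNA shows the abundance of that fragment and not of the ribosome, and in whole liver fewer cells of a type and less RNA per cell cannot be told apart.

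The 5.8S rRNA is a short RNA of the large ribosomal subunit. It is cut out of the long precursor that also holds the 18S and 28S rRNAs, where it lies between the internal transcribed spacers ITS1 and ITS2, and in the mature ribosome it pairs with the 28S rRNA. Its 5′ end is known to occur in a short and a long form. Because rRNA is the bulk of cellular RNA, its fragments appear in nearly all small RNA libraries.

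The rat 5.8S rRNA sequence was rebuilt from the deposited tags, since the reference tables hold only diverged copies of it. A RefSeq copy of 153 bases on the GRCr8 assembly (LOC134486017, chromosome 2, 1638507 to 1638659, plus strand) placed the tags, together with 137 bases of another (LOC134486900, chromosome 4, 1711792 to 1711928, minus strand). The majority base was then taken at each position. The result runs from the most used 5′ end to the most used 3′ end and is 156 bases long, the length RefSeq gives for the rat gene Rn5-8s (chromosome 11, 237779 to 237934). At least 555 reads covered every position, and at least 91.6% of them carried the majority base. The same sequence came out of the NAFLD libraries alone and of the normal libraries alone. The chromosome 2 copy differed from it at 15 of 153 bases and the chromosome 4 copy at 12 of 137. Capitals mark the most abundant tag of the 5′ end (positions 1 to 25), of the middle (69 to 89) and of the 3′ end (138 to 156).
Rat 5.8S rRNA: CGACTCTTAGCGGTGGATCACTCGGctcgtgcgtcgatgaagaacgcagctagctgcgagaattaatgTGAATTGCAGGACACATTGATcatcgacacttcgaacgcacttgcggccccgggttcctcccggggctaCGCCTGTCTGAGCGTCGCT

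Tags were put into 3 position classes. The 5′ end class held 59 tags that start within the first 5 bases, the 3′ end class held 45 tags that end within the last 5 bases, and the middle class held the other 1002. With these classes the ends were covered by few and abundant tags and the middle by many rare ones. By their definition the end classes can hold few distinct tags. The tag numbers, and part of the shares that follow, are therefore set by the classes. The 10 most abundant tags carried 80.7% to 91.4% of the 5′ end reads per library, 98.8% to 99.6% of the 3′ end reads and 20.5% to 34.3% of the middle reads. None matched the opposite strand, and none matched a RefSeq miRNA or the part of the 18S rRNA described below. Of the members, 308 also matched a diverged copy perfectly, and these held 10.8% of the member reads, so their copy of origin is uncertain. RefSeq lists 45 rRNA genes of 152 to 156 bases in the rat.

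The main 5′ end tags are shown because they differ by their first base and by where they end. Capitals mark positions 2 to 24, which they share.
Positions 1 to 25: cGACTCTTAGCGGTGGATCACTCGg
Positions 2 to 25: GACTCTTAGCGGTGGATCACTCGg
Positions 1 to 26: cGACTCTTAGCGGTGGATCACTCGgc
Positions 1 to 24: cGACTCTTAGCGGTGGATCACTCG
Positions 2 to 26: GACTCTTAGCGGTGGATCACTCGgc

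The main 3′ end tags all stop at base 156 and differ by where they start. Capitals mark positions 139 to 156, which they share.
Positions 138 to 156: cGCCTGTCTGAGCGTCGCT
Positions 137 to 156: acGCCTGTCTGAGCGTCGCT
Positions 139 to 156: GCCTGTCTGAGCGTCGCT
Positions 136 to 156: tacGCCTGTCTGAGCGTCGCT
Positions 131 to 156: ggggctacGCCTGTCTGAGCGTCGCT
Positions 130 to 156: cggggctacGCCTGTCTGAGCGTCGCT

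The main middle tags start at base 69 and end at bases 89 to 91.
Positions 69 to 89: tgaattgcaggacacattgat
Positions 69 to 90: tgaattgcaggacacattgatc
Positions 69 to 91: tgaattgcaggacacattgatca

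The libraries held 11601058 to 11880695 clean reads each, so counting error was small beside the differences between libraries. The liver miRNA miR-122-5p had 141180, 137772 and 131874 TPM in NAFLD 1, 2 and 3. It had 183119, 187220 and 200547 TPM in normal 1, 2 and 3, so it was lower in every NAFLD library. The liver miRNAs miR-192-5p and miR-194-5p overlapped between the groups. Of the leukocyte miRNAs, miR-223-3p had 0 to 0.337 TPM, miR-142-3p 0.0842 to 0.0862 TPM and miR-142-5p 0.421 to 2.96 TPM. Each miRNA was matched as its exact RefSeq sequence, so forms of other lengths were not counted. The smooth muscle miRNA miR-145-5p stood apart in normal 1, with 47.1 TPM against 3.06 to 9.14 TPM in the other libraries, while miR-143-3p had 3.13 to 5.69 TPM in all 6. The part of this in the results where normal 1 differs was not tested. The libraries stand apart in a way that crosses the groups. Reads with the substitution A4C, counted from the 5′ end of the most abundant tag of the libraries, were 0.685% to 0.810% of that tag's count in NAFLD 2, NAFLD 3 and normal 2, and 0.000753% to 0.00139% in NAFLD 1, normal 1 and normal 3. Results are therefore also given within these sets, called the high and the low substitution set, each of which leaves 1 library against a pair and allows no test. Longer reads of every kind were more frequent in the NAFLD libraries: reads of 26 nt or more were 3.16% ± 0.316 of clean reads in NAFLD and 0.932% ± 0.525 in normal libraries (SD, n = 3 each), and reads of 18 to 20 nt were 6.15% ± 1.83 and 3.20% ± 1.69.

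All 5.8S rRNA fragments together reached 8506, 5133 and 3395 TPM in NAFLD 1, 2 and 3 and 3997, 1591 and 1367 TPM in normal 1, 2 and 3. Normal 1 lay above NAFLD 3, so the groups overlapped. The means were 5678 ± 2598 TPM in NAFLD and 2318 ± 1458 TPM in normal libraries (SD, n = 3 each). On log2(TPM + 1), the scale of all class differences here, NAFLD minus normal was 1.36. A two-sided exact permutation test over libraries did not separate it from the spread between them (p = 0.2, Benjamini-Hochberg adjusted p = 0.267 over the total and the 3 classes). With 3 libraries a group that test cannot go below 0.1. The difference was 0.70 with edgeR's TMM factors, 0.60 with DESeq2's size factors and 0.89 when the 10 most abundant tags were left out of the library total. Without normal 1 it was 1.84 and the remaining groups no longer overlapped.

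Fragments of the 5′ end did not overlap between the groups. They reached 1824, 1611 and 1120 TPM in NAFLD 1, 2 and 3 and 704, 715 and 543 TPM in normal 1, 2 and 3. The lowest NAFLD library lay above the highest normal one, as was also so for 18.9% of all single tags tested. The means of 1518 ± 361 and 654 ± 96.4 TPM (SD, n = 3 each) gave a log2 difference of 1.19, or 2.29-fold on that scale (exact permutation p = 0.1, adjusted p = 0.267). The class difference lay 0.29 above the median log2 fold change of all single tags tested, which was 0.90. Within the low substitution set the difference was 1.56, and within the high set 0.91. Scaled by the TMM factors of edgeR it was 0.53, and by the size factors of DESeq2 0.43, and under both the groups overlapped.

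The 5′ end tags were also taken by their first base. Tags that start at base 1 reached 1174, 1140 and 829 TPM in NAFLD 1, 2 and 3 and 346, 478 and 283 TPM in normal 1, 2 and 3, a log2 difference of 1.52 without overlap. Tags that start at base 2 reached 636, 460 and 282 TPM in the NAFLD libraries and 346, 233 and 254 TPM in the normal libraries. These overlapped between the groups, with a log2 difference of 0.67. The difference between these 2 starts was not tested. The tag of positions 1 to 25 was the most abundant, with 478, 479 and 315 TPM in NAFLD and 80.1, 190 and 89.3 TPM in normal libraries, and the groups did not overlap. Its neighbour of positions 2 to 25, which lacks the first base, had 278, 195 and 112 TPM in NAFLD and 153, 108 and 106 TPM in normal libraries, where the ranges crossed. In edgeR's quasi-likelihood fit across all tags, the log2 fold change was 1.83 (standard error 0.44, adjusted p = 0.499) for positions 1 to 25 and 0.67 (standard error 0.42, adjusted p = 0.69) for positions 2 to 25. Neither passed the threshold of 0.05, and with TMM factors the latter was -0.057. Among the other main tags, positions 1 to 26 and 1 to 24 had log2 fold changes of 1.82 (standard error 0.51) and 1.14 (standard error 0.33), each with an edgeR adjusted p of 0.499. Positions 2 to 26 also lack the first base, but here the groups did not overlap, with 135, 103.8 and 63.0 TPM in NAFLD and 43.8, 49.6 and 57.1 TPM in normal libraries. Its log2 fold change was 1.00 (standard error 0.40, edgeR adjusted p = 0.513).

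Where the 5′ end fragments stop also varied. The most used ends in this region were bases 25, 26, 24 and 23. Tags of all starts that end at base 25 averaged 624 TPM in NAFLD and 245 TPM in normal libraries, those that end at base 26 averaged 320 and 114 TPM, and those that end at base 24 averaged 260 and 139 TPM. In each of these 3 the NAFLD libraries lay above the normal ones. For fragments that end at base 23, with 79.3 and 54.9 TPM, the groups overlapped. The log2 differences were 0.56, 0.85, 1.32 and 1.51 for ends at bases 23, 24, 25 and 26 and 1.91 at base 27. The end at base 33, also among the more used ends, had a lower difference of 1.09, also without overlap. Most of its 2655 reads came from middle tags. A 5′ end tag reaches base 33 only at 29 nt or more, and that class held 541 reads at 29 nt and 10 at 30 nt.

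Fragments of the 3′ end were the most abundant class in NAFLD and spread the most. They reached 5250, 2619 and 1602 TPM in NAFLD 1, 2 and 3 and 2188, 454 and 371 TPM in normal 1, 2 and 3. Normal 1 lay between the NAFLD libraries and far above the other 2 normal ones. The means were 3157 ± 1882 and 1004 ± 1026 TPM (SD, n = 3 each), with a log2 difference of 1.96 (exact permutation p = 0.2, adjusted p = 0.267). The difference was 2.54 within the low and 2.17 within the high substitution set, and 1.30 with TMM factors and 1.20 with DESeq2's size factors. Without normal 1 it was 2.77, with no overlap among the libraries left.

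The short and the long 3′ end tags behaved differently in normal 1. The tag of positions 138 to 156, the most abundant 5.8S rRNA tag of all, had 1608, 780 and 511 TPM in NAFLD and 1009, 64.9 and 65.2 TPM in normal libraries. Normal 1 was thus among the high libraries for this 19-nt tag. The tag of positions 131 to 156, which has the same end and starts 7 bases earlier, had 852, 471 and 322 TPM in NAFLD and 5.06, 127 and 14.3 TPM in normal libraries. Here normal 1 was the lowest library, and the groups did not overlap. The counts behind these low values were 60 reads in normal 1 and 170 in normal 3, against 3804 to 9887 in the NAFLD libraries. In edgeR's fit across all tags the log2 fold change was 3.49 (standard error 1.26, adjusted p = 0.501) for positions 131 to 156 and 1.35 (standard error 1.18, adjusted p = 0.806) for positions 138 to 156. Single libraries moved both values. That of positions 138 to 156 was 3.89 without normal 1, 0.77 without NAFLD 1 and 0.85 without normal 2 or normal 3, and that of positions 131 to 156 was 5.82 without normal 2.

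The tag of positions 130 to 156, longer by 1 more base, followed the 26-nt tag. It had 81.4, 34.4 and 28.9 TPM in NAFLD and 1.18, 5.64 and 0.926 TPM in normal libraries, again without overlap, and a log2 fold change of 4.22 (standard error 0.96, edgeR adjusted p = 0.499). The tag of positions 136 to 156 had 483, 348 and 282 TPM in NAFLD and 345, 160 and 175 TPM in normal libraries, with overlap through normal 1. The start at base 131 lies inside the second arm of an inverted repeat. A search of the rebuilt sequence for perfect Watson-Crick repeats found 2 of the greatest length, 8 bases. The former pairs positions 33 to 40 (gtcgatga) with 89 to 96 (tcatcgac), and the latter pairs positions 115 to 122 (gccccggg) with 128 to 135 (cccggggc). Read coverage was lowest at base 127, just before that second arm, with a mean of 6.91 TPM. It was highest at base 139, with a mean of 2082 TPM.

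Middle fragments differed least. They reached 1432, 903 and 674 TPM in NAFLD 1, 2 and 3 and 1105, 422 and 453 TPM in normal 1, 2 and 3, and normal 1 lay above NAFLD 2 and 3. The means of 1003 ± 389 and 660 ± 386 TPM (SD, n = 3 each) had a log2 difference of 0.68 (exact permutation p = 0.3, adjusted p = 0.3). With TMM factors the difference was 0.014, and with DESeq2's size factors -0.084. The most abundant middle tag, positions 69 to 89, had 48.8, 25.1 and 25.6 TPM in NAFLD and 68.0, 16.4 and 23.8 TPM in normal libraries. It was highest in normal 1, followed by NAFLD 1, and lay between 16.4 and 25.6 TPM in the other libraries. Its log2 fold change was -0.12 (standard error 0.65, edgeR adjusted p = 0.924). All tags that start at base 69 averaged 214 TPM in NAFLD and 202 TPM in normal libraries.

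One start site that falls in the middle class lies near the 5′ end and had a larger difference than the class as a whole. Tags that start at base 11 reached 66.5, 58.8 and 63.2 TPM in NAFLD 1, 2 and 3 and 11.0, 28.1 and 14.2 TPM in normal 1, 2 and 3, a log2 difference of 1.87 without overlap. This site was singled out after its values were seen. Lack of overlap was not particular to it. In 31 of the 193 tested middle tags (16.1%), of any start, every NAFLD library lay above every normal one, against 18.9% of all tags tested. The tag of positions 10 to 34, gcggtggatcactcggctcgtgcgt, had the smallest unadjusted p among the tested 5.8S rRNA tags. It rests on 31 to 46 reads in each NAFLD library and 8 to 10 in each normal library, with 3.25 ± 0.676 and 0.758 ± 0.0834 TPM (SD, n = 3 each) and a log2 fold change of 2.08 (standard error 0.47, edgeR adjusted p = 0.499). The read filter of that fit asks for enough reads in 3 libraries, so a tag this low in normal libraries can enter through NAFLD alone. Its small p is therefore no support for a difference. With at least 10 reads needed in every library it was not tested. On the lower side, the tags with the smallest unadjusted p were positions 60 to 82 (log2 fold change -0.54, standard error 0.63), 67 to 90 (-0.63, standard error 0.76) and 69 to 90 (-0.39, standard error 0.66), with edgeR adjusted p of 0.825, 0.825 and 0.828. All 3 lie in the middle and overlapped between the groups.

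The make-up of the 5.8S rRNA reads does not depend on the library total. The middle took 16.8%, 17.6% and 19.8% of them in NAFLD 1, 2 and 3 and 27.6%, 26.5% and 33.1% in normal 1, 2 and 3, lower in every NAFLD library than in any normal one. The means were 18.1% ± 1.56 and 29.1% ± 3.55 (SD, n = 3 each), a difference of -11.0 percentage points (exact permutation p = 0.1, adjusted p = 0.3 over the 3 classes). Within the low substitution set the difference was -13.6 points and within the high set -7.79 points. The 3′ end took 61.7%, 51.0% and 47.2% in NAFLD and 54.7%, 28.6% and 27.1% in normal libraries, with overlap (exact permutation p = 0.3, adjusted p = 0.45). The 5′ end took 21.4%, 31.4% and 33.0% in NAFLD and 17.6%, 44.9% and 39.7% in normal libraries, with overlap (exact permutation p = 0.6). The widest Wilson interval at 95% confidence, for the 5′ end in normal 3, ran from 39.0% to 40.5%. It covers counting error only, because reads made by amplification do not each stand for 1 molecule.

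The groups were also compared by fragment length. Fragments of 26 nt or more averaged 1135 ± 382 TPM in NAFLD and 212 ± 141 TPM in normal libraries (SD, n = 3 each), a log2 difference of 2.56 without overlap. Fragments of 24 to 25 nt averaged 1091 ± 311 and 484 ± 68.4 TPM, a difference of 1.14 without overlap. Fragments of 21 to 23 nt averaged 972 ± 320 and 701 ± 357 TPM, a difference of 0.53, and those of 18 to 20 nt averaged 2481 ± 1616 and 922 ± 1150 TPM, a difference of 2.02, both with overlap. The exact permutation p was 0.1 for the former pair of bins and 0.3 for the latter pair, and the adjusted p over all 16 combinations of bin and class (total included) was at least 0.229. For 26 nt or more the difference was 3.57 within the low substitution set and 1.29 within the high one, and for 18 to 20 nt it was 2.39 and 2.78. With TMM factors the differences were 1.35 for 18 to 20 nt, -0.14 for 21 to 23 nt, 0.47 for 24 to 25 nt, where the exact permutation p was 0.3 and the groups overlapped, and 1.89 for 26 nt or more. Without normal 1 the 18 to 20 nt bin had 3.06 and the bin of 26 nt or more 2.29, so which bin differed most depended on that library. The length bins were chosen after values were seen.

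Since long reads of every kind were more frequent in NAFLD, the 5.8S rRNA fragments were also taken as a percent of all reads of the same lengths. At 26 nt or more they were 3.58% ± 1.05 of these in NAFLD and 2.19% ± 0.213 in normal libraries, still without overlap (SD, n = 3 each, exact permutation p = 0.1, adjusted p = 0.32). At 24 to 25 nt they were 1.26% ± 0.416 and 0.704% ± 0.0651, also without overlap. This did not hold at each single length. The mean percents in NAFLD and normal libraries were 6.14% and 2.68% at 26 nt and 2.11% and 1.14% at 25 nt, without overlap. They were 0.815% and 0.531% at 24 nt and 1.53% and 1.58% at 27 nt, both with overlap. At 28 nt they were 1.58% and 1.32%, without overlap. Pooled over all libraries, the 3′ end held 21012 of the 35831 reads of the 26-nt members, but this differed by library. It had 854 of 1226, 472 of 780 and 322 of 572 TPM in NAFLD 1, 2 and 3. In normal 1, 2 and 3 it had 5.06 of 96.4, 127 of 281 and 14.5 of 100 TPM. At 18 to 20 nt the 5.8S rRNA gave 3.76% ± 1.38 and 2.24% ± 1.88, with overlap. By class at 26 nt or more, the 3′ end made up 2.81%, 1.84% and 1.11% of such reads in NAFLD and 0.103%, 0.878% and 0.248% in normal libraries, without overlap. The middle made up 0.612% ± 0.169 and 0.960% ± 0.370, and the 5′ end 1.05% ± 0.145 and 0.825% ± 0.199, both with overlap. When every library was given the same length distribution, the log2 difference was 0.73 for the total, 0.68 for the 5′ end, 0.051 for the middle and 1.21 for the 3′ end. This standardisation was added after the data were seen.

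Tested tag by tag, the 5.8S rRNA fragments did not pass an adjusted p. Of the 1106 members, 237 passed the read filter of the edgeR fit, all others being too rare, and these held 97.0% of the 5.8S rRNA reads. Because the filter asks for enough reads in 3 libraries, a tag can pass through 1 group alone. This bears on the counts of direction and overlap below, for members and for all tags. The number with an adjusted p under 0.05 was 0, as it was among all 19492 tags tested (0%). At an unadjusted p under 0.05, 30 members were higher in NAFLD and 0 lower, or 12.7%, against 9.48% of all tags tested that were higher at that p. In 48 members, or 20.3%, the lowest NAFLD library exceeded the highest normal library, against 18.9% of all tags tested, so this share was near that of all tags. In 0 members did all NAFLD libraries lie below the normal ones, against 0.585% of all tags tested. With other tools, the members with an unadjusted p under 0.05 in either direction numbered 43 (18.1%) with limma on log2(TPM + 1), against 12.7% of all tags tested. With DESeq2 they numbered 15 (6.33%, 9 of them higher in NAFLD), against 5.08%, and with TMM factors in edgeR 7 (2.95%, 6 of them higher), against 3.9%. In each of these 0 members had an adjusted p under 0.05. Over all 19492 tags tested that number was 0 with limma, 19 with DESeq2 and 0 with TMM factors.

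Among the tested members the log2 fold change had a median of 0.75, against 0.90 for all tags tested. With TMM factors the medians were 0.13 for the members and 0.23 for all tags. The members' median thus lay below that of all tags under both scalings, but the order depended on the fit. It lay above with the substitution set as a covariate (1.13 against 0.84) and with at least 10 reads in every library (0.62 against 0.54). The same was so without normal 1 (1.31 against 1.12) and without NAFLD 3 (1.03 against 0.96). In the other fits it lay below. All 28 tested 5′ end tags had a positive log2 fold change, with a median of 0.78 and a range from 0.18 to 4.47. All 16 tested 3′ end tags did, with a median of 1.88 and a range from 0.34 to 4.40. Of the 193 tested middle tags 169 were positive and 24 negative, with a median of 0.73. These directions depended on the scaling: positive log2 fold changes numbered 213 of the 237 tested members by total clean reads, 143 with TMM factors and 123 with DESeq2. The tested tags of a class overlap in sequence, so these counts are not of independent results. Positive values were also the rule over the whole table, with the median of 0.90 for all tags. Of all tags with an unadjusted p under 0.05 in the edgeR fit, 1848 of 1854 were higher in NAFLD. The share of positive values over all tags was not counted, so the direction counts show nothing particular to the members. With the substitution set as a covariate, 1 of the 237 tested members had an adjusted p under 0.05. In that fit 187 of all 19492 tags tested (0.959%) were called as higher, a larger share than among the members. The called member is given for its values only. It was the 5′ end tag of positions 1 to 28, cGACTCTTAGCGGTGGATCACTCGgctc, with 24.3, 28.8 and 36.9 TPM in NAFLD and 0.759, 6.91 and 0.505 TPM in normal libraries. Its log2 fold change was 3.62 (standard error 0.66, edgeR adjusted p = 0.04995, just under the threshold) in that fit and 3.46 (adjusted p = 0.499) without the covariate. Normal 1 and 3 had 9 and 6 reads of it.

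Reads that run past the rebuilt ends were found at both sides and were counted apart from the members. Upstream of base 1 the reads gave the 7 bases in capitals here, followed by the first 10 bases of the rRNA: ACCGATAcgactcttag. In all, 92 tags with upstream bases reached 512, 387 and 330 TPM in NAFLD 1, 2 and 3 and 388, 194 and 179 TPM in normal 1, 2 and 3, with overlap through normal 1. Their means of 410 ± 93.1 and 253 ± 117 TPM (SD, n = 3 each) had a log2 difference of 0.76 (exact permutation p = 0.3). The extension was not spread evenly. Tags with 1 upstream base held 9162 reads and those with 6 held 5887, against 236 reads for those with 7. Of all 5′ end reads, upstream tags included, the upstream tags were 21.3% ± 1.75 in NAFLD and 27.2% ± 7.41 in normal libraries, with overlap (exact permutation p = 0.3, adjusted p = 0.54 over 9 such shares).

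At the other end, 13 tags carried 1 more T after base 156, as in cgcctgtctgagcgtcgctT with the added base in capitals. They reached 238, 143 and 108 TPM in NAFLD and 213, 61.7 and 60.6 TPM in normal libraries, with overlap. As a percent of 3′ end reads and these together, they were 4.34%, 5.18% and 6.33% in NAFLD and 8.86%, 11.95% and 14.04% in normal libraries. This share was lower in every NAFLD library (5.29% ± 1.00 against 11.6% ± 2.61, SD, n = 3 each, exact permutation p = 0.1, adjusted p = 0.45). Whether this T belongs to the rRNA, its precursor or an added tail cannot be told apart here. With it counted as part of the rRNA, the 3′ end difference was 1.86 in place of 1.96.

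Fragments of another rRNA were compared in the same way. The reference tables hold 300 bases of an 18S rRNA gene, the RNA of the small ribosomal subunit (LOC120102105, GRCr8 chromosome 11, 239226 to 239525), and 2091 tags matched within them on the rRNA strand. They reached 2320, 1913 and 1256 TPM in NAFLD 1, 2 and 3 and 1519, 628 and 767 TPM in normal 1, 2 and 3, with a log2 difference of 0.97 and overlap through normal 1 (exact permutation p = 0.2). The order of the libraries was thus much like that of the 5.8S rRNA fragments. The log2 ratio of 5.8S to 18S TPM was 1.87, 1.42 and 1.44 in NAFLD and 1.40, 1.34 and 0.83 in normal libraries, which did not overlap. Its difference of 0.39 (exact permutation p = 0.1, adjusted p = 0.333 over 5 comparisons with the 18S window) was 0.76 within the low substitution set and 0.089 within the high one. For the 5′ end, the middle and the 3′ end taken singly, the differences in this ratio were 0.22, -0.29 and 0.99, each with overlap and an exact permutation p of at least 0.2. Fragments of the 18S window of 26 nt or more and of 24 to 25 nt had log2 differences of 1.80 and 0.95, both without overlap. Those of 18 to 20 and 21 to 23 nt had 1.13 and 0.69, both with overlap. The same 2 length bins were thus without overlap as for the 5.8S rRNA fragments.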

How the data were processed

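The authors sequenced gel-purified small RNA and discarded reads of poor quality, with adapter faults, of poly A, or shorter than 18 nt. For each library they deposited a raw count per remaining tag, neither normalized nor filtered for a genome match, and a log whose clean reads equal the sum of the counts. The build of the submitters' notes is rn5; no genome was used here.

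Tags were placed by words of 10 bases on the RefSeq copies (up to 4 mismatches, then 2), the majority base was taken, and members are perfect substrings. TPM follows the study. Its fold change is the log2 ratio of group TPM; here differences of mean log2(TPM + 1) are given instead, which can differ from it. Class values were compared by two-sided exact permutation tests on log2(TPM + 1). All tags with at least 15 reads passing filterByExpr entered edgeR 4.0.16 (library size the total clean reads, Benjamini-Hochberg threshold 0.05); alternatives used limma 3.58.1 and DESeq2 1.42.0, in R 4.3.3 and Python 3.11.15. Standard errors are the absolute log2 fold change over the root of F. Scripts were tested on simulated data. Named tags are the 10 most abundant, the 3 most abundant per class and the 3 with the smallest p per direction. Members and lists were chosen with earlier results of these data known. The p-values measure only the spread between these libraries.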

Additional observations from a re-analysis of the deposited data

How the results depend on the processing

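The total, 5′ end, middle and 3′ end differences kept their direction under the alternatives tried, except the middle with DESeq2's size factors, at -0.084. Some of these could not move a value: leaving out tags that match a miRNA or the 18S window removed 0 members, other position classes leave the total as it is, and pairing leaves a mean difference as it is. Leaving out each library gave 1.02 to 1.84 for the total, 1.05 to 1.40 for the 5′ end, 0.39 to 1.13 for the middle and 1.49 to 2.77 for the 3′ end. Their exact permutation tests cannot pass 0.05 with 3 or fewer libraries a group. Fragments of 21 to 23 nt turned to -0.14 with TMM factors. Same-numbered libraries did not all deviate together across tags (r = 0.69, 0.65 and -0.49 for numbers 1, 2 and 3), so the numbers were not taken as pairs. Libraries numbered 1 were both of the low substitution set and those numbered 2 both of the high set. NAFLD 3 was of the high and normal 3 of the low set. Number and set thus cannot be told apart in these r values. With the replicate block, 0 members passed an adjusted p, as did 0 of all tags tested. An unadjusted p under 0.05 was reached by 32 members (13.5%) and by 1597 of all tags tested (8.19%). The 5′ end difference of 1.19, which pairing cannot change, had an exact sign-flip p of 0.25, the smallest possible. Members with an adjusted p under 0.05 numbered 0 under all alternatives except the substitution set as a covariate, where it was 1. Over all tags tested the number was 189 with that covariate, 19 with DESeq2 and 1 when every library needed at least 10 reads. Under the other alternatives it was 0. Members with an unadjusted p under 0.05 numbered 30 (12.7%), but 7 with TMM (2.95%), 15 with DESeq2 (6.33%) and 87 with the substitution set (36.7%). Over all tags tested the number was 1854 (9.51%), and it was 760 with TMM (3.90%), 991 with DESeq2 (5.08%) and 5256 with the substitution set (27.0%). When 1 library was left out, members numbered 15 to 62 and all tags 870 to 5299, out of differing numbers tested. Without NAFLD 1, NAFLD 2 or NAFLD 3 the shares were 6.12%, 5.77% and 12.6% of members and 5.06%, 4.31% and 9.51% of all tags. Without normal 1, normal 2 or normal 3 they were 23.8%, 13.5% and 5.47% of members and 10.4%, 20.9% and 3.40% of all tags. Directions of single tags turned as follows. Positions 2 to 25 had -0.057 with TMM and -0.16 with DESeq2, and positions 136 to 156 had -0.0053 with DESeq2. Positions 69 to 89 had 0.077 with the replicate block, 0.35 with the substitution set and 0.070 with limma, and positions 69 to 90 and 69 to 91 had 0.063 and 0.069 with the substitution set. Left-out libraries gave -0.51 to 0.72 for positions 69 to 89 (0.043 without NAFLD 2, 0.034 without NAFLD 3), -0.87 to 0.41 for 69 to 90, -0.80 to 0.43 for 69 to 91 and -1.31 to 0.19 for 67 to 90. The cause was not tested. The rRNA was rebuilt from the same libraries, and fragments of its many gene copies cannot be told apart.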

Other observations

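Tags 1 substitution away from the rebuilt 5.8S rRNA were not members and numbered 4463, with 38695 reads. As a percent of these reads and the member reads together, they were 19.7%, 20.002% and 22.1% in NAFLD 2, NAFLD 3 and normal 2 and 5.63%, 3.67% and 4.74% in NAFLD 1, normal 1 and normal 3. Substitutions are written as the rRNA base, its position from base 1 and the read base. A9C was carried by 7.44%, 8.29% and 8.92% of the reads over that base in the former 3 libraries and by 0% to 0.00931% in the latter. A84C was carried by 8.66%, 9.24% and 9.91% in the former and by at most 0.0107% in the latter. These follow the set of libraries and not the group.

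G139T behaved otherwise. It was carried by 3.72%, 1.39% and 1.40% of reads in NAFLD 1, 2 and 3 and by 1.34%, 2.98% and 3.24% in normal 1, 2 and 3, so it was present in both sets. In 17 tags it held 3721 reads in all. Its most abundant tag, Tcctgtctgagcgtcgct with the substituted base in capitals, had 1397 reads in NAFLD 1 and 43 to 134 in the other libraries. G149T was also present in both sets, at 0.769% to 1.73%. The origin of these reads was not tested, and the diverged gene copies of the rat genome were not compared beyond the 2 named.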
